A study of Mus musculus with 3 samples.

Results

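The genes described are 40 of the cell cycle, of 27998 genes counted, in single kidney cells of mice with and without the lipase acyloxyacyl hydrolase (Aoah). The genes were listed by symbol and fall into 15 genes of S phase, in which DNA is copied, and 25 genes of mitosis, in which the chromosomes are parted. All 40 were in the count tables. Kidneys of 2 Aoah-/- mice (numbers 2 and 3) and 1 wild-type (WT) mouse (number 3) gave 1 library each. All 3 mice were 6 to 8 weeks old by their labels, had been given folic acid (FA), which injures the kidney tubule, and were sampled at day 14. No untreated kidney was compared. The deletion is in every cell of the animal and was backcrossed to C57/BL6J, and the controls of the colony were WT littermates. Whole kidneys were digested to single cells, so tubule, vessel and immune cells are all present.

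A cell that divides first loads the MCM helicase on its replication origins, then copies its DNA, and then builds the spindle, checks that each chromosome is attached and separates the copies. Most genes of these steps are transcribed in 2 waves, an early wave driven by E2F factors and a late wave of mitosis genes. In resting cells the DREAM complex holds down genes of both waves. In the injured kidney, proximal tubular epithelial cells (PTECs) divide to replace lost cells, and macrophages and lymphocytes divide as well.

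The libraries held 21368, 19692 and 18202 cells after filtering, with medians of 3357, 3678 and 3859 UMIs (counted RNA molecules) per cell, always given here in the order Aoah-/- mouse 2, Aoah-/- mouse 3 and WT mouse. Between 109 and 117 barcodes were shared by any pair of libraries. Aoah itself stood at 6.06, 5.68 and 15.3 CPM (UMIs per 1000000 UMIs). It was counted at its 3′ end, and the deleted part is not given in the sources used here, so this checks the labels only in part. The library of Aoah-/- mouse 3 stands apart, since 3746 of its cells could not be named by their markers (938 and 627 in the others) and its lowest UMI total per barcode was 1672 (500 in both others). With 1 WT library no test across mice was run, and no p-value is given. A difference is the mean of the 2 Aoah-/- libraries against the WT library, with the SD between the 2 Aoah-/- libraries (n = 2). Intervals are exact 95% intervals that cover counting error only.

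The promoter windows are shown because the S phase and the mitosis genes took different courses in PTEC-like cells. Whether promoter motifs bear on this was not tested. RefSeq windows on build GRCm38.p6, from 250 bases before the start site to 50 bases from it on, were found for 32 of the 40 genes. Capitals mark 3 kinds of motif, searched on both strands. These are the E2F motifs TTTCCCGC and TTTGGCGC, the cell cycle homology region (CHR, TTTGAA), at which DREAM and MuvB complexes bind, and the CCAAT box of NF-Y. The stretches printed run from 180 bases before the start to 30 bases from it on, 5′ to 3′ on the strand of the gene. Mcm5 at chr8:75109329-75109538 (plus strand) and Mcm6 at chr1:128359676-128359885 (minus strand) stand for the early wave. Cdk1 at chr10:69352883-69353092 (minus strand), Ccnb2 at chr9:70421525-70421734 (minus strand) and Ube2c at chr2:164769749-164769958 (plus strand) stand for the late wave, and Cenpa at chr5:30666706-30666915 (plus strand) and Kif23 at chr9:61946770-61946979 (minus strand) are shown because their levels by cell class were unlike those of the other mitosis genes.
Mcm5: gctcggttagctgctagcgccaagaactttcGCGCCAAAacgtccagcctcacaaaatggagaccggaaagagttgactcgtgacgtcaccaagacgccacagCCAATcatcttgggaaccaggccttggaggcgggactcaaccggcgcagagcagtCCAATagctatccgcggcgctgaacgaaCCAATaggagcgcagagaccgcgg
Mcm6: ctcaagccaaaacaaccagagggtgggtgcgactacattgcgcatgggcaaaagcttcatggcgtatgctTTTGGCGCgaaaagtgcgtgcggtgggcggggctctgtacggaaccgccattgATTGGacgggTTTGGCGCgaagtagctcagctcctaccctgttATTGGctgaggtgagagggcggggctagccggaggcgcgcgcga
Cdk1: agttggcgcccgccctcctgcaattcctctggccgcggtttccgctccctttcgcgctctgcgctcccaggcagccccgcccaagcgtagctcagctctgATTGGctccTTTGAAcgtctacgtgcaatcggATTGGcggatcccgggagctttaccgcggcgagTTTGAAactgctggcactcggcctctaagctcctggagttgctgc
Ccnb2: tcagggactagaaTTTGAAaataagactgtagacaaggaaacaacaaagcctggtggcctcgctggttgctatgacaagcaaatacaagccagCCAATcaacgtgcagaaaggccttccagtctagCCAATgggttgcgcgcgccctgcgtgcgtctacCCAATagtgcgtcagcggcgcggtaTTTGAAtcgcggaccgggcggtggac
Ube2c: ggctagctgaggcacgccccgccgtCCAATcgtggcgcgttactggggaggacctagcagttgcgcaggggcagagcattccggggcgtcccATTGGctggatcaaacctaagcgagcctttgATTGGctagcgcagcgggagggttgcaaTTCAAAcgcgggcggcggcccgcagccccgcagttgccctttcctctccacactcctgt
Cenpa: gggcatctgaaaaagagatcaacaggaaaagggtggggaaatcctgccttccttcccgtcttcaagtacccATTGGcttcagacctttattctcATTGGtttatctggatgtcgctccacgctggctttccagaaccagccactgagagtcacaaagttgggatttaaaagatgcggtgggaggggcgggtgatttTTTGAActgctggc
Kif23: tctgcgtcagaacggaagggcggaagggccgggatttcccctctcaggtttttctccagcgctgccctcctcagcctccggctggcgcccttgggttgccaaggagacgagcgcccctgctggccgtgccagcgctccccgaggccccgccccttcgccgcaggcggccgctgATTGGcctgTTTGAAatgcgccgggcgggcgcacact

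Of the 14 windows of S phase genes (12 genes), 5 held an E2F motif (35.7%), and of the 20 windows of mitosis genes none did, against 1.57% of all 32851 windows. The CHR was found in 14 of the 20 mitosis windows (70%) and in 1 S phase window, that of Mcm2, against 17.9% of all windows. All 14 of those mitosis windows also held CCAAT, a pair that was found in 6.95% of all windows. CCAAT alone was common in both sets, in 11 of 14 and 17 of 20 windows, against 37.4% of all. Of the 18 CHR matches in mitosis genes, 13 lay within 50 bases of the start. The same count was not made for the CHR matches of all windows. A match is a run of letters and not a measured site, and these windows were not assayed here.

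**Figure D1:**
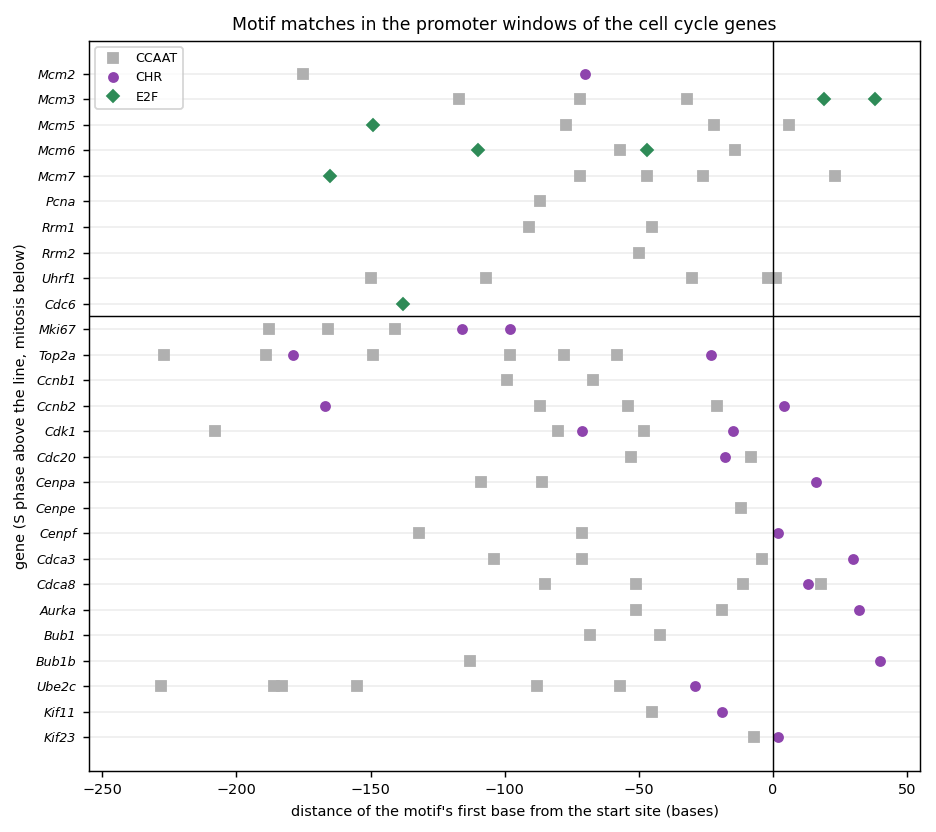
Position of each motif match (x axis, bases from the start site to the first base of the motif) in the windows of the genes with at least 1 match (y axis). Green diamonds (E2F) lie only among the S phase genes, while 13 of the 18 violet circles (CHR) of the mitosis genes lie within 50 bases of the start.

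Natural killer (NK)-like, T lymphocyte-like and macrophage-like cells held the highest levels of both gene sets by the mean of the libraries. Summed over the 25 mitosis genes, NK-like cells had 536, 1080 and 1118 CPM, T lymphocyte-like cells 528, 742 and 899 CPM, and macrophage-like cells 383, 638 and 480 CPM. The order was the same within each library, but the ranges of the 3 classes overlapped between libraries. Of the NK-like mitosis UMIs, 55.9%, 67.3% and 82.6% lay in 2, 5 and 7 cells with at least 10 of the genes. Without such cells, NK-like cells had 244, 386 and 222 CPM and T lymphocyte-like cells 233, 242 and 293 CPM. The first rank of NK-like cells for mitosis genes thus rests on few cells. For the 15 S phase genes, NK-like cells had 383, 510 and 603 CPM, T lymphocyte-like cells 406, 377 and 455 CPM, and macrophage-like cells 262, 268 and 252 CPM. Here the macrophage-like cells lay below both lymphocyte classes in every library, and above every other named class in every library. PTEC-like cells had 76.3, 86.1 and 149 CPM of the mitosis genes and 66.9, 58.9 and 66.5 CPM of the S phase genes, and were 12th and 16th of 17 classes by mean. Principal-like cells, another tubule class, had 66.8, 69.95 and 58.7 CPM of the mitosis genes.

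**Figure D2:**
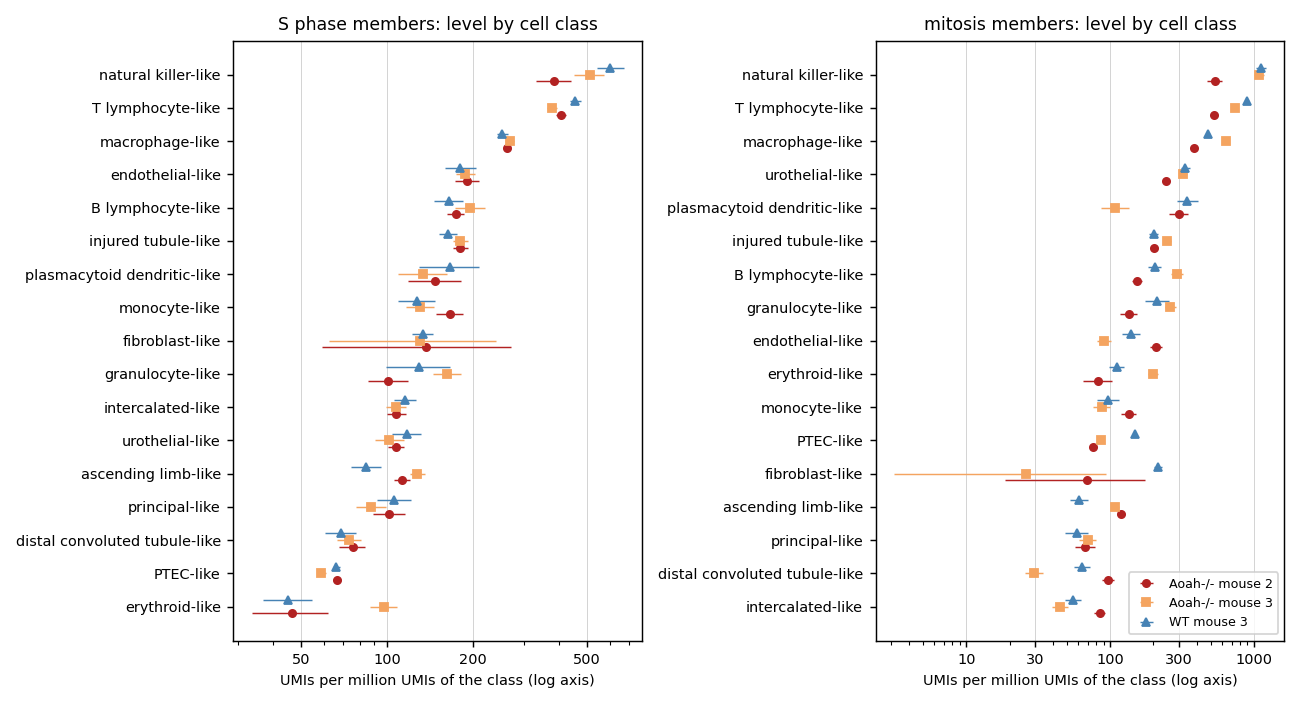
Summed level of the S phase genes (left) and mitosis genes (right) in each cell class and library, in CPM on a log axis, with classes ordered by their mean. Bars are exact Poisson 95% intervals, and the 3 highest classes are the same in both panels.

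Gene by gene the order was much the same. Of the 25 mitosis genes, 14 were highest in NK-like and 7 in T lymphocyte-like cells by the mean of the 3 libraries, and of the 15 S phase genes 10 and 5. The NK-like means come from only 172, 145 and 178 cells. The other 4 were Stmn1, Cenpa, Kif23 and Cdc20.

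Stmn1, whose product stathmin takes microtubules apart, was highest in urothelial-like cells, at 182, 288 and 303 CPM. Between 50.5% and 76.6% of those cells held a UMI of it, and 53.3% to 62.1% of its UMIs there lay in cells with no other mitosis gene. Cenpa, the histone H3 variant of the centromere, was highest in B lymphocyte-like cells, at 75.9, 118 and 108 CPM, close to its 84.5, 97.3 and 108 CPM in T lymphocyte-like cells. In B lymphocyte-like cells 70.3% to 85.0% of its UMIs lay in cells with no other mitosis gene, and at most 3.51% in cells with 3 or more others. Kif23, a kinesin of the central spindle, was highest in granulocyte-like cells, at 52.7, 30.1 and 73.8 CPM, from 81, 55 and 36 UMIs. There 88.9%, 74.5% and 88.9% of its UMIs lay alone, against 29.2%, 16.7% and 16.7% in T lymphocyte-like cells. The level of Kif23 in granulocyte-like cells was above that in T lymphocyte-like cells (8.55, 12.6 and 10.4 CPM) in every library, in cells without the rest of the set. Cdc20, an activator of the anaphase-promoting complex (APC/C), was highest in plasmacytoid dendritic-like cells by its mean, but from 11, 1 and 9 UMIs in 1, 1 and 2 cells, so this order rests on very few cells.

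**Figure D3:**
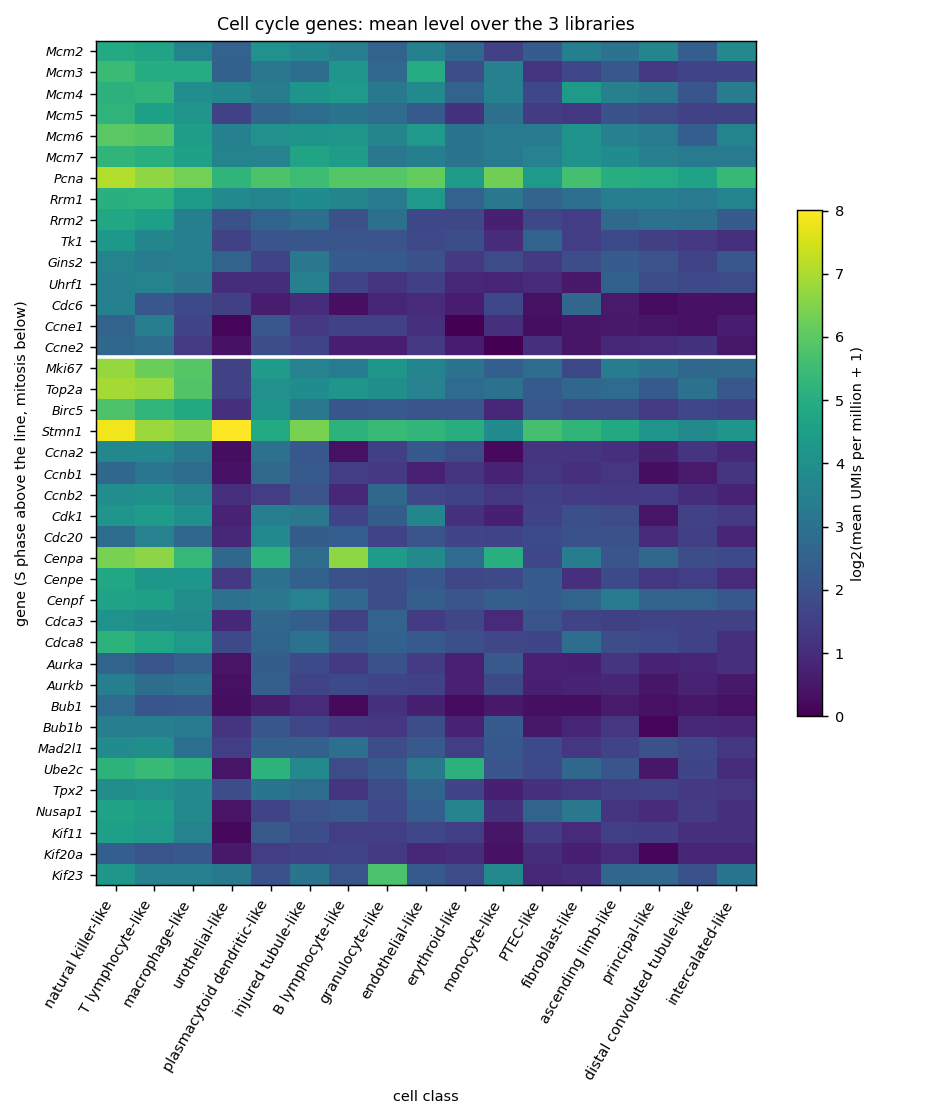
Mean level of each of the 40 genes (rows) in each cell class (columns, ordered by the summed mitosis level) as log2 of the mean CPM of the 3 libraries plus 1. The left 3 columns are bright for most rows, and single bright cells mark Stmn1 in urothelial-like, Cenpa in B lymphocyte-like and Kif23 in granulocyte-like cells.

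How far a gene was limited to cells with the rest of its set also differed. For 21 of the 25 mitosis genes, more than 50% of all UMIs lay in cells that held at least 3 other genes of the set, with a median of 77.6%. It was highest for Bub1, a kinase of the spindle checkpoint, at 91.6%, 92.9% and 91.5%, and the inhibitor-of-apoptosis protein Birc5 (survivin) of the chromosomal passenger complex at 89.4%, 85.9% and 91.0%. The 4 genes under 50% were Kif23, Mad2l1, Stmn1 and Cenpa, with means of 45.0%, 38.9%, 34.1% and 32.9%. Among the S phase genes the median was 46.9%, and only 5 of 15 passed 50%. Uhrf1, which reads newly copied DNA for methylation, was at 68.7%, 67.3% and 71.8%, and Pcna, the clamp of the DNA polymerases, at 18.8%, 18.8% and 19.0%. Pcna had 31.4 CPM even in cells with no other S phase gene, against 97.6 CPM in cells with 3 or more. These shares depend on the depth of a cell and on the number and level of the genes in the set, so they describe the genes within a set and are not compared between the sets.

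Macrophage- and PTEC-like cells were numerous, and held large shares of the UMIs. Of the mitosis UMIs of each library, macrophage-like cells held 27.8%, 24.9% and 14.2% and PTEC-like cells 19.0%, 15.2% and 43.2%. With the shares of the 3 libraries averaged, macrophage-like cells were the largest source for 15 of the 25 mitosis genes, among them Bub1b at 35.2%. PTEC-like cells were the largest source for 9, among them Nusap1 at 38.9%. Of the S phase genes, PTEC-like cells were the largest source for 8, with 44.9% for Tk1, macrophage-like cells for 5 and T lymphocyte-like cells for 2. This order turned on the library, since PTEC-like cells held more UMIs than macrophage-like cells for 23 of the 25 mitosis genes in the WT library and for 4 in each Aoah-/- library, and for 13, 5 and 6 of the S phase genes (WT, mouse 2, mouse 3).

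Over all kept cells, the mitosis genes summed to 170 (168 to 172), 213 and 206 CPM. The WT library lay between the 2 Aoah-/- libraries, with a log2 ratio of -0.11 ± 0.23 (SD, n = 2). None of the 25 genes passed the limit, which asked for a 1.5-fold ratio of the means and for both Aoah-/- values to lie to 1 side of WT, farther from it than from each other. Over all 16228 genes tested, 9.24% passed above WT and 6.14% below. The S phase genes summed to 133, 134 and 110 CPM, with both Aoah-/- libraries above, at a log2 ratio of 0.29 ± 0.0063. Of the 15 genes 13 had a positive ratio (median 0.36, against 0.082 over all genes tested), and 1, Mcm3 of the replicative helicase, passed the limit at 8.28, 9.56 and 5.88 CPM. The make-up of the libraries differed at the same time, and its part in the result was not tested beyond the values given next. PTEC-like cells were 38.5%, 24.1% and 52.1% of the kept cells and had the lower level of S phase genes. With the share of UMIs of each class set equal in the 3 libraries, the S phase genes stood at 127, 124 and 124 CPM (log2 ratio 0.018 ± 0.021), and the mitosis genes at 156, 201 and 227 CPM (-0.35 ± 0.26).

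In PTEC-like cells, every mitosis gene lay below WT in both Aoah-/- libraries, while most S phase genes did not. The summed mitosis level of 76.3 (74.0 to 78.6), 86.1 (83.5 to 88.7) and 149 (146 to 152) CPM was 1.83-fold higher in the WT library (log2 ratio -0.88 ± 0.12). Of 24 genes with enough UMIs, all 24 had a negative ratio and 20 passed the limit below WT, none above it, where 3.84% of all 13111 genes tested passed below and 8.11% above. The median of the 24 was -1.08, against -0.0060 over all genes tested. Of the 13 S phase genes tested, 1 passed below WT and none above, with a median of 0.0066. The genes were counted in the same cells, so the 24 are not 24 independent observations.

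Among the cyclins and their kinase, Cdk1 and Ccna2 had the widest differences. Ccna2 (cyclin A2) stood at 0.752, 0.819 and 2.32 CPM, Cdk1, the kinase that starts mitosis, at 1.45, 0.942 and 3.61 CPM, and Ccnb2 (cyclin B2) at 1.29, 1.64 and 2.71 CPM. Ccnb1 (cyclin B1) stood at 1.33, 0.696 and 2.31 CPM. In each of these 4 the WT library was the highest, and the 2 Aoah-/- libraries lay closer to each other than to it. Ube2c, Cdc20 and Cdca3 also lay below WT. Ube2c, the ubiquitin-conjugating enzyme of the APC/C, stood at 1.47, 1.07 and 4.59 CPM, a log2 ratio of -1.86 and the largest of the set, and Cdc20 at 1.15, 2.15 and 4.08 CPM. Cdca3 stood at 2.45, 2.19 and 4.93 CPM.

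Genes of the spindle and the chromosomes lay below WT too. Tpx2, which activates Aurora A at the spindle, stood at 0.591, 0.799 and 2.22 CPM, Aurka itself at 0.519, 0.328 and 1.14 CPM, and Nusap1, a microtubule-bundling protein, at 4.35, 3.89 and 6.54 CPM. Of the kinesins, Kif11, which pushes the spindle poles apart, stood at 1.59, 1.17 and 2.12 CPM and Kif23 at 0.770, 0.594 and 1.28 CPM. All 5 passed the limit. Cenpf, a kinetochore protein, had the second largest ratio at 1.45, 3.20 and 7.61 CPM (-1.71), and Cenpa stood at 1.67, 2.23 and 2.97 CPM. Bub1b (BubR1) of the spindle checkpoint stood at 0.304, 0.307 and 0.644 CPM, from 17, 15 and 48 UMIs. Birc5 and Cdca8 (borealin) of the chromosomal passenger complex stood at 2.40, 2.56 and 5.59 CPM and at 1.90, 1.58 and 3.17 CPM. All 5 of these genes passed as well.

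Mki67, the source of the Ki-67 antigen, stood at 3.47, 4.94 and 10.5 CPM, and Top2a, which untangles DNA copies, at 3.04, 1.68 and 6.71 CPM. Stmn1, the most abundant of the set there, stood at 36.3, 46.2 and 63.6 CPM, and without it the other 24 genes summed to 40.0, 39.8 and 85.3 CPM (-1.10 ± 0.0038). Of the tested genes 4 did not pass, namely Cenpe, a kinetochore motor, at 4.26, 3.11 and 4.69 CPM, Mad2l1 of the spindle checkpoint at 2.29, 2.42 and 2.78 CPM, the passenger kinase Aurkb at 0.680, 0.266 and 0.967 CPM, and the kinesin Kif20a at 0.555, 1.09 and 1.53 CPM. Bub1, with 14, 9 and 25 UMIs, was too low to be tested. Among the 20 genes with a promoter window, all 14 with a CHR passed the limit, and of the 5 tested genes without one 3 passed (Nusap1, Birc5 and Ccnb1). This is a count over few genes that was read after the values were known, without the same count over all genes with a CHR. Aurkb and Kif20a, which did not pass, had no window and are not in this count. Of all 24 mitosis genes tested 20 passed, where 3.84% of all genes tested passed below WT.

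Most S phase genes of PTEC-like cells did not take this course. Of the helicase genes, Mcm2 stood at 4.10, 4.14 and 3.69 CPM, Mcm4 at 2.54, 2.27 and 2.20 CPM and Mcm6 at 9.08, 7.82 and 9.60 CPM. Mcm3, Mcm5 and Mcm7 had log2 ratios of 0.25, 0.067 and -0.22, and for none of the 6 did the libraries differ by 1.5-fold. Pcna stood at 20.9, 17.2 and 17.8 CPM, with the WT library between the others. Of the enzymes that supply DNA building blocks, Rrm1, the large subunit of ribonucleotide reductase, stood at 5.68, 5.16 and 4.39 CPM, and Rrm2, its small subunit, at 2.01, 1.62 and 3.48 CPM (-0.94), the S phase gene that passed below WT. Thymidine kinase (Tk1) stood at 4.26, 4.44 and 5.93 CPM and Gins2, which joins the helicase, at 1.43, 1.33 and 1.91 CPM, both below WT in both libraries but within 1.5-fold. Uhrf1 and cyclin E2 (Ccne2) had the WT library between the others. Cdc6, which loads the helicase, and cyclin E1 (Ccne1) had at most 25 UMIs in any library and were not tested. The ratio of S phase to mitosis UMIs was 0.878, 0.684 and 0.446, and without Stmn1 it was 1.67, 1.48 and 0.779. Of the Pcna UMIs of the class, 53.4%, 52.0% and 51.5% lay in cells with no other S phase gene. Only 12.8%, 8.44% and 16.4% lay in cells with 3 or more others. The S phase sum had a log2 ratio of -0.079 ± 0.13, and -0.23 ± 0.075 without Pcna, Mcm3, Mcm6 and Rrm1, which resting cells can express. A sum near WT thus does not show that as many cells were in S phase.

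**Figure D4:**
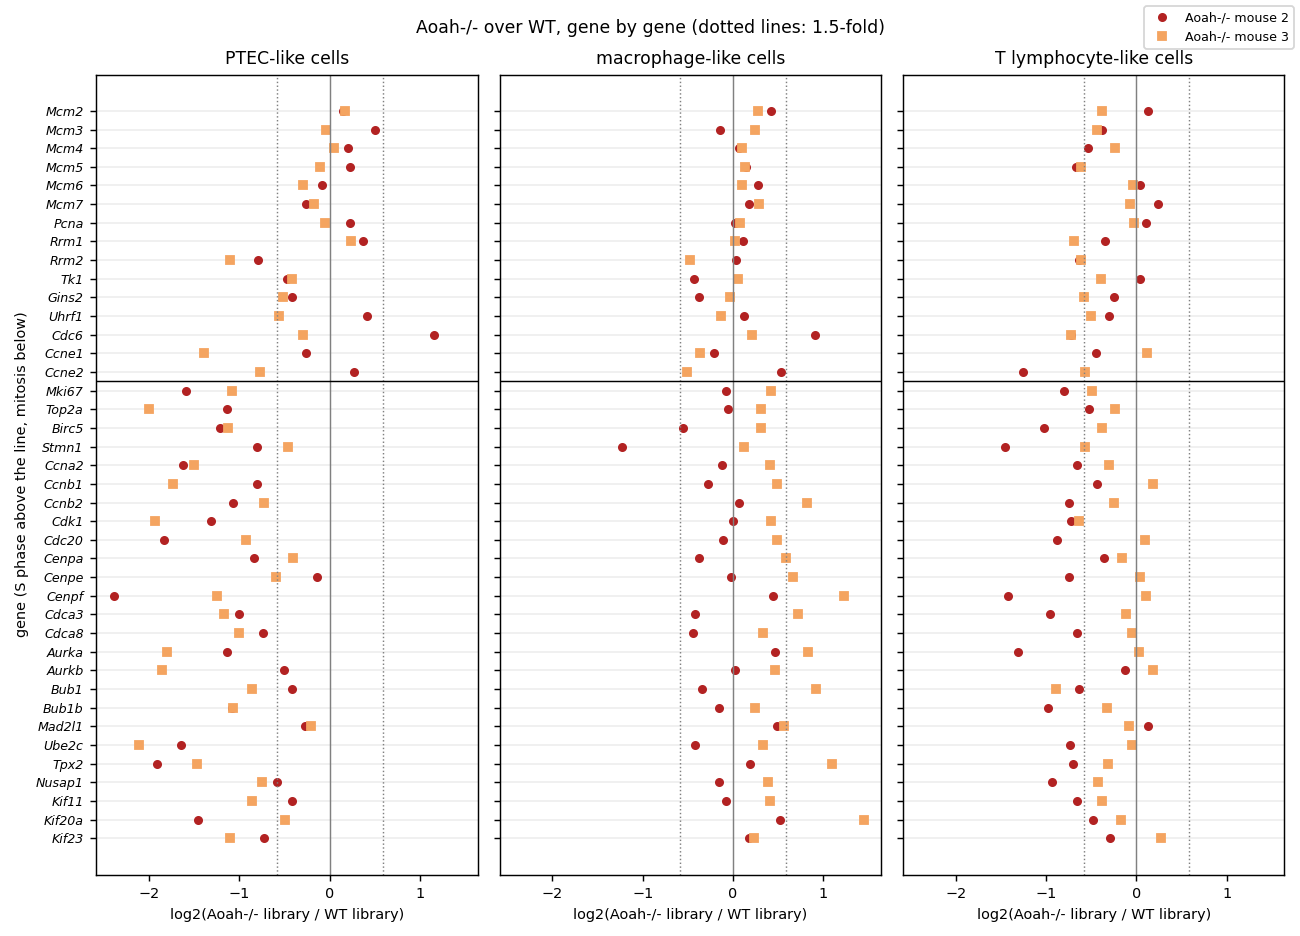
Log2 ratio of each Aoah-/- library to the WT library for each of the 40 genes (y axis) in PTEC-like, macrophage-like and T lymphocyte-like cells, without added counts; dotted lines mark 1.5-fold. In PTEC-like cells both points of every mitosis gene lie left of 0, in macrophage-like cells the 2 libraries lie on different sides for most mitosis genes, and the S phase genes of PTEC-like cells scatter around 0.

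The difference in PTEC-like cells lay mostly in few cells. Cells holding at least 10 of the 25 mitosis genes numbered 19 of 8234 (0.231%, 0.139% to 0.360%), 14 of 4741 (0.295%, 0.162% to 0.495%) and 37 of 9480 (0.390%, 0.275% to 0.538%), and the intervals overlapped. They held 26.3%, 29.0% and 54.1% of the mitosis UMIs of the class. In the WT library they also held more each, with a median of 100 mitosis UMIs (34 and 68 in the Aoah-/- libraries), at a median depth of 19425 UMIs (12533 and 15926), and the highest single cell held 592 (191 and 234). Per UMI of these cells, the mitosis genes stood at 4173, 5168 and 8740 CPM. Without these cells the mitosis genes stood at 56.5, 61.4 and 69.0 CPM (-0.23 ± 0.086), and of the 20 genes then tested none passed the limit (3.33% of all genes passed below WT and 8.28% above), 7 had a negative ratio, and the median was 0.050. The cells were picked by the same genes, and the limit of 10 genes was set after the data had been seen. Without the 10 highest cells of each library the values were 60.2, 64.7 and 103 CPM (-0.73 ± 0.073). The count of 20 genes below WT was the same when either Aoah-/- library alone was set against WT, by the fold limit alone (background 5.61% and 4.42%). Outside the class, 11, 37 and 5 unnamed and 4, 6 and 6 injured tubule-like cells also held at least 10 mitosis genes. Unnamed cells held 6.93%, 17.3% and 8.04% of all mitosis UMIs of the libraries. Some of their clusters had PTEC markers, and how many of these cells were PTECs was not tested, so the counts depend on the naming.

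Genes outside the cell cycle were also read in the PTEC-like cells with 10 or more mitosis genes. The PTEC markers summed to 32623, 29304 and 30056 CPM in them, against 59456, 71364 and 71960 CPM in the rest of the class. A set of 7 immune genes summed to 55.8, 34.0 and 27.7 CPM, against 12206, 16821 and 8224 CPM in the macrophage-like cells with 10 or more mitosis genes. At least 2 of the 7 were found in 21.1%, 7.14% and 2.70% of these 19, 14 and 37 cells. In the rest of the class they were found in 7.95%, 9.37% and 2.80%. Aoah-/- mouse 2 had the highest share among these cells, but the shares rest on very few cells and depth was not made equal. The depths of the cells with 10 or more mitosis genes stood above the medians of the class, 3044, 6537 and 4836 UMIs. None of these cells was among the 10% with the highest Scrublet doublet scores. Of the whole class 4.29%, 4.56% and 6.39% were, so among 19, 14 and 37 cells this says little about doublets. Without the 10% highest scores the log2 ratio of the mitosis genes was -0.89.

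Few PTEC-like cells stood out once depth was made equal. With each cell thinned to 1000 UMIs and shallower cells left out (1975, 0 and 1838), 0.639% (0.457% to 0.869%), 0.506% (0.325% to 0.752%) and 0.759% (0.577% to 0.980%) of PTEC-like cells held at least 2 mitosis genes. The median depths before thinning were 5331, 6537 and 6954 UMIs. As a background, 3 other tubular classes were pooled (ascending limb, distal convoluted tubule, intercalated). They had 0.567%, 0.438% and 0.628% at 9700, 5128 and 8306 UMIs. Granulocyte-like cells had 1.22%, 1.79% and 1.01% at 1682, 2189 and 1963 UMIs. Neither background was free of cells with many mitosis genes. Without thinning, cells with at least 10 of them numbered 5, 5 and 5 in the pooled tubular classes and 0, 2 and 0 in granulocyte-like cells. At this limit of 2 genes the share in PTEC-like cells lay near that of the tubular background. It cannot tell dividing cells from that background and is not read as a difference. Without thinning the shares were 4.82%, 7.51% and 5.94%. For S phase genes the thinned shares were 0.431%, 0.148% and 0.523%. After thinning, 22 of 6259, 14 of 4741 and 43 of 7642 PTEC-like cells held 3 or more mitosis genes. In the pooled tubular classes 5 of 1763, 6 of 2514 and 5 of 1115 did, and in granulocyte-like cells 1 of 738, 2 of 671 and 0 of 199.

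**Figure D5:**
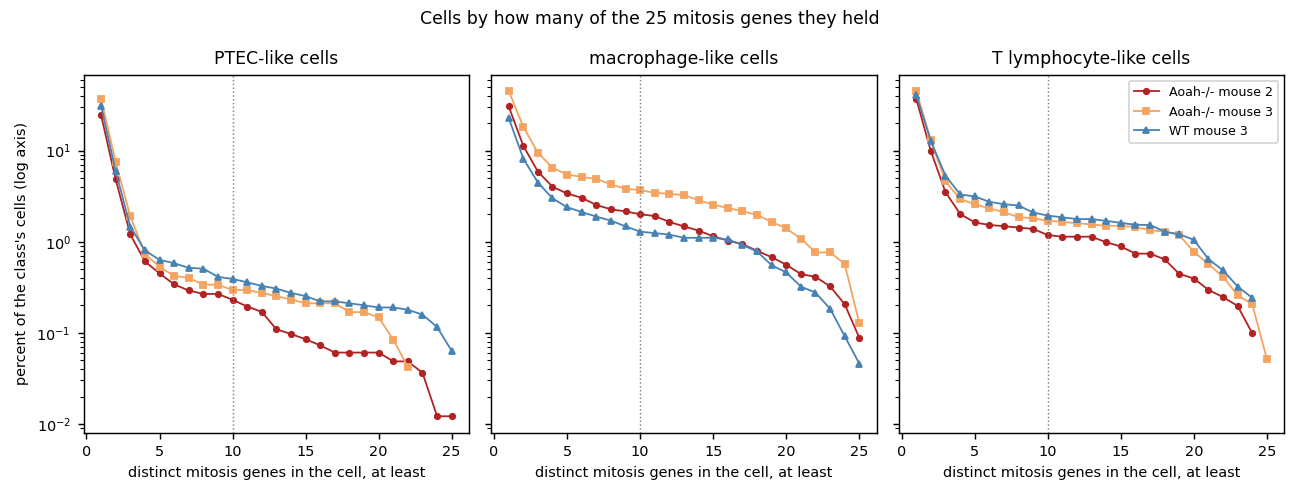
Percent of the cells of a class (log axis) that held at least a given number of the 25 mitosis genes, by library, without thinning; the dotted line marks 10 genes. In PTEC-like cells the WT curve lies above both others from 4 genes on, where it rests on 76 cells or fewer.

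The clusters that make up the PTEC-like class did not contribute alike. In the 2 clusters with the widest differences the mitosis genes stood at 50.9, 65.9 and 131 CPM and at 105, 127 and 340 CPM (-1.17 ± 0.26 and -1.55 ± 0.19). In 2 others they stood at 77.5, 83.3 and 87.5 CPM and at 81.1, 68.5 and 89.5 CPM (-0.12 ± 0.074 and -0.26 ± 0.17), and in the fifth at 139, 104 and 176 CPM. All 5 had the WT library highest. The clusters also differed in depth. The 2 with the widest differences had 3.30 and 3.26 times the median UMIs of their library. The 2 others had 0.674 and 0.489 times, and the fifth 0.489 times. The part of depth in these differences was not tested.

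In macrophage-like cells the 2 Aoah-/- libraries lay on different sides of WT. The mitosis genes stood at 383 (373 to 392), 638 (623 to 654) and 480 (464 to 495) CPM, with a log2 ratio of 0.091 ± 0.52, and the S phase genes at 262, 268 and 252 CPM (0.072 ± 0.024). None of the 25 and none of the 15 genes passed the limit, where 7.04% of all 11729 genes tested passed above and 1.36% below WT. The mitosis genes with both Aoah-/- libraries above WT included Cenpf at 12.5, 21.5 and 9.20 CPM and Kif20a at 3.01, 5.73 and 2.10 CPM, but the gap between the 2 Aoah-/- libraries was in both as wide as that to WT or wider. Stmn1 stood at 47.0, 119 and 110 CPM, with Aoah-/- mouse 2 apart. The largest cluster of the class was a different one in each library. One with Saa3 among its leading genes held 1388, 13 and 78 cells, and without it the mitosis genes stood at 382, 638 and 509 CPM (0.0029 ± 0.52). The cluster highest in mitosis genes had 374, 451 and 341 cells with 638, 911 and 737 CPM. The median depth of the class was 3739, 5316 and 1360 UMIs. At 1000 UMIs per cell, 4.15% (3.42% to 4.98%), 4.70% (3.71% to 5.87%) and 4.16% (3.13% to 5.42%) held at least 2 mitosis genes, all above the tubular background, with intervals that overlapped. There, 744, 0 and 924 cells were left out as too shallow.

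T lymphocyte-like cells had both sets below WT. The mitosis genes stood at 528 (509 to 547), 742 (721 to 763) and 899 (870 to 929) CPM (-0.50 ± 0.35), but the 2 Aoah-/- libraries lay farther from each other than the nearer one from WT. The S phase genes stood at 406, 377 and 455 CPM (-0.22 ± 0.075), with a gap to WT wider than that between the Aoah-/- libraries. Of the 25 mitosis genes 5 passed below WT and none above (2.58% and 4.1% of all 10033 genes tested). They were Stmn1 at 59.7, 111 and 164 CPM, Mki67 at 55.6, 69.2 and 97.0 CPM, Cdk1 at 16.2, 17.3 and 26.9 CPM, Nusap1 at 14.6, 20.8 and 27.9 CPM and Bub1 at 3.03, 2.56 and 4.72 CPM from 17, 17 and 19 UMIs. Of the 15 S phase genes 4 passed below WT, none above. Mcm5 stood at 18.9, 19.7 and 30.1 CPM, Rrm2 at 18.4, 18.7 and 28.6 CPM, Cdc6 at 2.85, 2.86 and 4.72 CPM and Ccne2 at 3.74, 6.02 and 8.95 CPM. Against WT with the fold limit alone, 18 mitosis genes lay below in Aoah-/- mouse 2 and 2 in Aoah-/- mouse 3 (background 5.17% and 3.21%), so the count turned on the library. The share of cells with at least 2 mitosis genes at 1000 UMIs was 3.48% (2.70% to 4.40%), 3.61% (2.83% to 4.54%) and 4.69% (3.56% to 6.07%). Cells with 10 or more of them numbered 24 of 2027, 33 of 1939 and 24 of 1241, and held 57.8%, 68.9% and 69.3% of the mitosis UMIs.

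Ascending limb-like cells went the other way, with mitosis genes at 120, 107 and 60.9 CPM and S phase genes at 113, 127 and 84.3 CPM. Here 2, 5 and 2 cells held 52.9%, 40.5% and 38.3% of the mitosis UMIs, and without these cells 56.7, 64.5 and 37.8 CPM remained. The class joined 2 clusters, of which the smaller, with 41, 441 and 13 cells, also had the macrophage genes Lyz2 and Ccl4 among its 10 leading genes. In the larger cluster alone, the mitosis genes stood at 124, 104 and 60.95 CPM and the S phase genes at 110, 124 and 81.7 CPM. Across the 16 classes compared, the mitosis genes had both Aoah-/- libraries above WT in 3, below in 5, and on different sides in 8.

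The regulators around these genes were read from lists of their own. Of the 6 cyclins and kinases of G1, none passed the limit over all kept cells (9.24% and 6.14% of all genes above and below WT). Ccnd1, Ccnd2 and Ccnd3 (the D cyclins) stood at 117.3, 121 and 126, at 77.6, 72.4 and 51.9, and at 51.5, 54.6 and 48.0 CPM. Their partners Cdk4 and Cdk6 stood at 48.1, 48.5 and 48.9 CPM and at 34.8, 33.6 and 27.5 CPM, and Cdk2, the partner of cyclin E, at 5.95, 4.92 and 4.57 CPM. In PTEC-like cells Ccnd1, the main D cyclin there, stood at 100, 110 and 129 CPM. Ccnd2 passed above WT there at a low 1.67, 2.01 and 0.926 CPM, where 8.11% of all genes passed above. In the PTEC-like cells with fewer than 10 mitosis genes, the set of 7 immune genes summed to 96.6, 62.6 and 37.7 CPM. Whether RNA of other cells adds to the Ccnd2 values was not tested. In T lymphocyte-like cells Ccnd2 led at 426, 428 and 444 CPM. Cdk6 passed above WT there at 79.8, 60.8 and 39.0 CPM, where 4.1% of all genes passed above.

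Of the 7 CDK inhibitors, 2 passed above and 1 below WT over all kept cells (9.24% and 6.14% of all genes). Cdkn1a (p21), which halts the cycle after DNA damage, stood at 155, 124 and 87.8 CPM, Cdkn2b (p15) at 6.03, 4.79 and 2.74 CPM, and Cdkn1c (p57) at 3.93, 5.395 and 12.7 CPM. The classes made up unlike shares of the libraries, with 11, 18 and 494 fibroblast-like cells for example. With the class shares set equal, Cdkn1a stood at 126.5, 113 and 118 CPM and Cdkn2b at 5.28, 4.27 and 3.74 CPM, and neither passed, while Cdkn1c stood at 4.87, 4.77 and 8.35 CPM and passed below WT. The class that held most Cdkn1a per UMI of the 3 compared was macrophage-like, at 623, 453 and 453 CPM, where it did not pass. In PTEC-like cells it stood at 9.95, 13.7 and 7.38 CPM, above WT in both but within the gap between them. Cdkn1c passed below WT in PTEC-like cells at 0.859, 0.758 and 1.48 CPM, where 3.84% of all genes passed below. Cdkn2a (p16 and p19Arf) stood at 1.501, 0.913 and 0.578 CPM over all kept cells, Cdkn1b (p27) at 49.3, 53.5 and 42.1 CPM, and Cdkn2c and Cdkn2d at 14.4, 15.7 and 12.6 and at 17.7, 22.6 and 16.3 CPM, none of which passed.

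Of the 18 RB, E2F and DREAM regulators 1 passed over all kept cells, the late E2F repressor E2f8 at 1.17, 1.08 and 0.746 CPM. Of all genes tested over these cells, 9.24% passed above WT and 6.14% below. Of the 28 genes of origin licensing and DNA synthesis 2 passed above WT, Chaf1b of the chromatin assembly factor at 2.48, 2.86 and 1.48 CPM and Pola2 of DNA polymerase alpha at 4.03, 4.32 and 2.78 CPM, and of the 8 checkpoint kinases and CDC25 phosphatases none passed. Of 49 other genes of the spindle, kinetochore and chromosomes 5 passed above and 2 below WT, with Spag5, a spindle protein, at 2.29, 1.995 and 1.23 CPM and Hmmr, which organises spindle microtubules, at 2.60, 3.88 and 5.62 CPM as the widest in each direction. In PTEC-like cells the same list had 22 of 42 tested genes past the limit below WT and none above. Of all genes tested there, 3.84% passed below and 8.11% above. The median of the list was -0.77, against -0.0060 over all genes tested. Hmmr was among the 22, at 1.20, 2.42 and 5.95 CPM. These genes were counted in the same cells as the 25 mitosis genes, so the list is not an independent observation. The list of licensing and synthesis genes had none of 27 past the limit in PTEC-like cells (median -0.16). In macrophage-like cells 9 of 48 of the spindle list passed above WT and none below (7.04% and 1.36% of all genes), and in T lymphocyte-like cells 9 of 40 below and none above (2.58% and 4.1%), where the count of mitosis genes turned on the library. In macrophage-like cells the RB, E2F and DREAM list had none of 17 past the limit, the licensing and synthesis list 1 of 26 above, and the checkpoint list 1 above and 1 below of 7. In T lymphocyte-like cells these lists had 2 of 15, 2 of 26 and 1 of 5 below WT and none above, with E2f8 at 2.67, 2.41 and 4.72 CPM. In PTEC-like cells the RB, E2F and DREAM list had 1 above and 2 below of 16, and the checkpoint list none of 7.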

How the data were processed

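Droplet 3′ scRNA-seq libraries of 3 mouse kidneys were analysed. For each of them the authors deposited raw UMI counts (27998 genes by called cells). The labels name build mm10, Cell Ranger 3.1.0, STAR and Seurat 4.2.0, and the matrix headers name cellranger 6.1.2. In total 167222984, 161015021 and 158551992 UMIs were deposited.

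Barcodes under 200 detected genes or above 50% mitochondrial UMIs were dropped, which left 59262 cells. They were clustered jointly with scanpy 1.11.5 (2000 variable genes, 50 principal components, 15 neighbours, Leiden by igraph 0.11.9, resolution 1), leaving cell cycle genes, histones and Aoah out of the clustering genes. Of 36 clusters 26 were named by markers, giving 17 classes and 91.0% of the cells. A name asked for a mean log2 fold of at least 2 over the 5 best markers of the class, 3 markers at 2-fold, 50 cells, and a marker of the class among the 10 leading genes, with no other class holding more there. A further 2 clusters best matched by immune markers that also held PTEC markers stayed unnamed. Cell type names are rebuilt here and can differ from those of the study. Doublets were kept: Scrublet called 544, 0 and 201 cells, so its threshold did not work in 1 library. No correction between libraries was made.

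For every class and library the UMIs were added up and expressed per 1000000 UMIs (CPM). Each molecule is counted once, so levels carry no length correction. Poisson and Clopper-Pearson 95% intervals are exact (scipy 1.17.1), and UMIs of the same cell are not independent. Genes with at least 50 UMIs in the cells compared were tested against the 1.5-fold limit, and a WT count of 0 was set to 3. No test was run across mice. The limit was also run on simulated counts with known changes, drawn from a single profile without variation between mice or shifts of cell classes. Such a run cannot show how often that variation passes the limit. Named are all 40 genes, the G1 genes, the CDK inhibitors and, of each other list, the 2 widest past the limit over all kept cells. The genes, lists and alternatives were chosen with earlier results of these data known. Promoter windows are RefSeq's (GRCm38.p6), of which 25 of 34 had bases 11 to 30 from the start in a GENCODE M21 transcript of the gene.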

Additional observations from a re-analysis of the deposited data

Results flagged for a closer look

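The direction of the difference between the Aoah-/- libraries and the WT library was not the same in every cell class. The rule asked that the 2 Aoah-/- values lay to 1 side of WT, farther from it than from each other. Of 16 classes compared, the mitosis genes met this rule above WT in 2 and below it in 1. The S phase genes met it above WT in 5 and below it in 4. How often libraries of a single genotype would meet the rule was not tested. The mitosis genes lay below WT in PTEC-like cells (log2 ratio -0.88) and above it in ascending limb-like (0.90) and principal-like cells (0.22). The S phase genes lay above WT in ascending limb-like (0.51), injured tubule-like (0.14), distal convoluted tubule-like (0.12), macrophage-like (0.072) and endothelial-like cells (0.072). They lay below it in plasmacytoid dendritic-like (-0.24), T lymphocyte-like (-0.22), urothelial-like (-0.16) and intercalated-like cells (-0.10). Some of these were small. The macrophage-like value turned to -0.0093 with the same UMI minimum in every library, and the counting intervals of the S phase genes of both Aoah-/- libraries overlapped that of WT in macrophage-, endothelial-, distal convoluted tubule-, injured tubule-, plasmacytoid dendritic-, urothelial- and intercalated-like cells, as did those of the mitosis genes in principal-like cells. The differences between the classes were not tested, and with 1 WT library a common shift of that library cannot be told apart from the genotype.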

How the results depend on the processing

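After the data had been seen, 7 alternatives were added: equal class shares, leaving out clusters mostly of 1 library, the Saa3 cluster or the 10 cells of each library with most mitosis UMIs, leaving out Stmn1, and, with values given beside the results, CDK inhibitors at equal class shares and the ascending limb-like clusters alone. Leaving out the cells with at least 10 mitosis genes, a limit also set after the data had been seen, is not counted among these 7. No paired analysis was made. The groups share 1 replicate number, and nothing in the sample descriptions used here says that it marks a matched pair. Values are log2 ratios of Aoah-/- to WT unless said otherwise, and the cause of a change was not tested.

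Leaving out either Aoah-/- library gave, over all kept cells, -0.28 to 0.048 for the mitosis and 0.28 to 0.29 for the S phase genes, in PTEC-like cells -0.96 to -0.79 and -0.17 to 0.010, in macrophage-like cells -0.33 to 0.41 and 0.055 to 0.089, and in T lymphocyte-like cells -0.77 to -0.28 and -0.27 to -0.16. The share of cells with at least 2 mitosis genes (Aoah-/- minus WT, percentage points) then ranged from 0.11 to 0.45 over all kept cells, -0.25 to -0.12 in PTEC-like, -0.017 to 0.54 in macrophage-like and -1.22 to -1.08 in T lymphocyte-like cells.

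The mitosis genes of PTEC-like cells stayed below WT under all 13 alternatives. Leaving out the cells with at least 10 mitosis genes is not among the 13. It gave -0.23 for the sum, with none of the 20 genes then tested past the limit and a median of 0.050. Values that moved were -0.70 with at most 20% mitochondrial UMIs and -0.41 as the mean of per-cell CPM. They were -1.16 without 7 genes that resting cells can express, -0.73 without the 10 highest cells and -1.10 without Stmn1. Of these 7 genes, Stmn1, Mad2l1 and Cenpa left the mitosis sum, and Pcna, Mcm3, Mcm6 and Rrm1 the S phase sum. The S phase genes of PTEC-like cells were 0.13 with the 20% limit and -0.23 without the 7 genes. Over all kept cells equal class shares moved the mitosis genes to -0.35 and the S phase genes to 0.018. The S phase genes were 0.40 with the 20% limit, 0.28 with at least 500 genes per cell, 0.34 without the 10% highest Scrublet scores, 0.30 as per-cell mean, 0.24 without the 7 genes and 0.27 without clusters mostly of 1 library. In macrophage-like cells they turned to -0.0093 with the same UMI minimum in every library, and were 0.12 without high Scrublet scores, 0.15 at resolution 2, 0.21 with cell cycle genes kept in the clustering, 0.39 as per-cell mean and 0.035 without mitochondrial UMIs. In T lymphocyte-like cells they were -0.079 as per-cell mean and -0.33 without the 7 genes.

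The share of cells with at least 2 mitosis genes moved over all kept cells to 0.69 (2000 UMIs) and 1.14 (no thinning). In PTEC-like cells it was 0.12 with the 20% limit, 0.13 with 500 genes, -0.29 with the same UMI minimum, 0.018 with cell cycle genes kept, -0.34 at 500 UMIs, -0.30 at 2000 UMIs and 0.23 without thinning, so its sign is not settled. In macrophage-like cells it was 0.76 with 500 genes, 0.80 without high Scrublet scores, 1.31 at resolution 2, 0.87 with cell cycle genes kept, 1.16 at 2000 UMIs and 6.57 without thinning. In T lymphocyte-like cells it was -1.25 with the 20% limit, -1.47 with the same UMI minimum, -0.53 without high Scrublet scores, -1.45 with cell cycle genes kept, -0.59 without the 7 genes, -0.75 at 500 UMIs, -1.64 at 2000 UMIs and -1.33 without thinning. The number of the 40 genes past the limit over all kept cells was 1 at 1.5-fold, 10 at a lower limit (9 above and 1 below WT, where 18.1% and 12.3% of all genes passed) and 0 with 1 CPM added.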

Other observations

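Cells in which one wave was seen without the other were also counted. Of PTEC-like cells, 22, 17 and 36 held at least 5 mitosis genes without 5 S phase genes, 23, 14 and 28 held at least 5 S phase genes without 5 mitosis genes, and 15, 8 and 24 held both. In T lymphocyte-like cells those that held both were the most numerous, at 27, 30 and 32 cells, against 6, 20 and 7 with mitosis genes alone and 14, 17 and 9 with S phase genes alone. In macrophage-like cells 69, 43 and 26 held both. These counts were made without thinning and move with depth.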
